A study of Mus musculus with 10 samples.

Results

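The matrix metalloproteinases (Mmp genes), the ADAM and ADAMTS metalloproteinases (Adam and Adamts genes) and the tissue inhibitors of metalloproteinases (Timp genes) were taken from the deposited count table as every protein-coding gene whose symbol begins with Mmp, Adam, Adamts or Timp followed by a digit. The rule gave 79 of the 55385 genes in the table, of which 22 were Mmp genes, 34 Adam genes, 19 Adamts genes and 4 Timp genes. The table classes Mmp1a as a polymorphic pseudogene, so it lay outside the rule. RNA had been sequenced from 10 mouse samples of a tumour line, which the titles call APV245 and the design text APC245. The line came from an ovarian tumour with mutations in both Arid1a and Pik3ca, and both groups share it. A first group of 5 libraries was labelled IL6 shRNA1 with the genotype IL6 knockdown, and the other 5 were labelled control shRNA with the genotype WT (control shRNA), a hairpin with no mammalian target in the pLKO.1-puro vector. All were labelled untreated and of batch 1. The sample labels describe cells kept in DMEM medium, whereas the design text describes tumours grown under the skin, and no age of animals is given. The knockdown rests on 1 hairpin sequence in 1 line, and nothing states that the samples of a group came from separate cultures or animals, so p-values measure only the spread between these samples, which may be technical in part. Every pair of libraries within a group differed by more than counting noise (chi-square per degree of freedom of 13.2 to 77.5 over genes). The comparison asks how these genes differ in RNA between samples carrying the hairpin against Il6 and control samples.

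Metalloproteinases of these families cut proteins outside the cell with a zinc ion in the active site and are made as inactive precursors. Mmp enzymes degrade collagens and other matrix proteins, some after secretion and some while anchored in the plasma membrane. Adam enzymes mainly release the outer parts of membrane proteins such as TNF, growth factors and cytokine receptors, whereas Adamts enzymes are secreted and act on proteoglycans and procollagens. Timp proteins block the active sites. Many of these genes are made in tumours by cancer cells, by fibroblasts and by macrophages alike, and interleukin-6, which signals through STAT3, is among the cytokines known to raise several of them.

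Totals ranged from 17905397 to 22682346 counts per library. Il6 itself was counted 9 to 48 times per library, with a mean of 1.73 CPM (SD 0.41) under the IL6 hairpin label and of 1.26 CPM (SD 0.64) under the control label. Its log2 fold change was 0.44 with an SE of 0.36 (adjusted p = 0.44). CPM are read counts relative to the library size after TMM scaling, values after ± are the SD over 5 libraries for a level and the SE for a log2 fold change, and every fold change below is that of the libraries labelled IL6 shRNA1 over control. The mean of the targeted RNA was thus not lower, against the label, but counts were low and the interval also holds a fall. Every direction below is therefore one between libraries labelled IL6 shRNA1 and control libraries. On the first principal component (54.3% of the variance), IL6 shRNA1 library 5 and control libraries 2 and 5 lay farthest out. Of 14 macrophage and monocyte markers, 11 were higher in the libraries labelled IL6 shRNA1, and none was at 0 in every library. Without those 3 libraries, 0 of the 14 passed (with DESeq2 on all libraries, 13). Their summed level was 1802 to 3068 CPM against 795 to 1823 CPM, so the groups met at only 1 library each. Of the markers tested for lymphocytes (8), endothelium (10), neutrophils (5) and muscle, fat and skin (8), none passed by edgeR. At an unadjusted p under 0.05 there were 3, 5, 0 and 5, and DESeq2 called 0, 4, 0 and 2, all of them as higher. The log2 fold change was positive in 8, 10, 3 and 8 of these markers, with medians of 0.86, 0.53, 0.19 and 3.17. The muscle, fat and skin markers summed to 149 to 8272 CPM against 41.6 to 886 CPM, with the highest value in IL6 shRNA1 library 5. Of 13 fibroblast and pericyte markers, 2 were lower, and of 11 epithelial and Mullerian markers tested, 1 was higher (Upk3b). These 11 were counted in every library, among them Muc16 (15 to 137 counts), Krt8 (364 to 1709) and Wt1 (1074 to 2410). Pax8, a marker of Mullerian epithelium in the same list, was not tested and had 0 to 2 counts per library. In such bulk samples, fewer cells of a type and less RNA per cell cannot be told apart.

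Promoters are shown for the Mmp cluster of chromosome 9, where Mmp13, which passed the test described below, lies beside neighbours that did not, and for Mmp23, which also passed. RefSeq start sites of the build GRCm38.p6 matched 49 of the 79 genes by symbol, with 54 windows of 250 bases before the start. The other 30 genes had no entry. An AP-1 motif (TGACTCA, either strand) lay in 14.8% of the members' windows and in 4.46% of all 32851 windows. A TATA box (TATAAA, strand of the gene) lay in 16.7% and 7.59%. Both together lay in 11.1% of the members' windows, which belonged to 6 genes, and in 0.481% of all windows. The genes with both were Mmp1b, Mmp3, Mmp7, Mmp10, Mmp13 and Adam29, so that 5 of the 6 lie in the cluster. An AP-1 motif without a TATA box began 131 bases before a start of Adam19, which also passed, and 44 before a start of Mmp12, which did not. The 150 bases before the starts of Mmp13 (chr9:7272364-7272513), Mmp3 (chr9:7445672-7445821) and Mmp10 (chr9:7502192-7502341), all on the plus strand, are shown as examples with both motifs close to the start. Mmp7, which had no count in any library, is not shown. Its AP-1 motif and nearer TATA box began 63 and 26 bases before 1 of its starts. The 150 bases before 1 of the Mmp23 starts (chr4:155653291-155653440, minus strand) are shown because they hold the only member match to a STAT motif with TTCC arms. Capitals mark the AP-1 motif, the TATA box and the STAT motif.
Mmp13: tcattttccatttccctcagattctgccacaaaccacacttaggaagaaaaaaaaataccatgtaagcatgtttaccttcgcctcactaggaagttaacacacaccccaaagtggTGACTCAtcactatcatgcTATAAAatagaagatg
Mmp3: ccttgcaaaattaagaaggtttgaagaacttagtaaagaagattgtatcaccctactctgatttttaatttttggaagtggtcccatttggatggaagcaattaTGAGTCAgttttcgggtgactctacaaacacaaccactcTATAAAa
Mmp10: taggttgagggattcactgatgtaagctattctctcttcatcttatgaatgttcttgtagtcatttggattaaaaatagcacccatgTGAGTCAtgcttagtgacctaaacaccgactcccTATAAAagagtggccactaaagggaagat
Mmp23: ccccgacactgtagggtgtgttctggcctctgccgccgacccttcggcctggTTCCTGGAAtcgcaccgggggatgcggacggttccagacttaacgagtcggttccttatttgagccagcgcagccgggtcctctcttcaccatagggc

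In these windows the AP-1 motif began 35 bases before the start in Mmp13, 46 in Mmp3 and 63 in Mmp10, the latter pair on the opposite strand. The TATA box began 16, 7 and 29 bases before the start. In Mmp23 the STAT motif began 98 bases before the start shown. The window before the other Mmp23 start (chr4:155653385-155653534, minus strand) ends within this motif, which therefore lies across that start. The general STAT motif (TTCNNNGAA, either strand, which includes the form with TTCC arms) lay in 7.41% of the members' windows and 7.02% of all windows, and the form TTCCNGGAA in 1.85% and 0.913%. Of the other motifs searched on both strands, the ETS motif (AGGAAG) lay in 37.0% of the members' windows and 29.5% of all. The RUNX motif (AACCACA) lay in 5.56% and 4.40%, the GC box (GGGCGG) in 37.0% and 32.7%, and the NF-kB motif in 11.1% and 7.25%. A match describes letters in these windows and not binding.

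Transcripts of the membrane-type enzyme Mmp14, which activates the precursor of Mmp2, were the most abundant of the 79 genes per unit of length in every library. On the scale of the deposited FPKM values, which divide counts by gene length and library total, Mmp14 stood at 412 to 570 FPKM and no other member exceeded 373 FPKM. Then came Timp1 (261 FPKM on average over the 10 libraries), Mmp2 (184 FPKM), Timp2 (143 FPKM), Mmp9 (97.2 FPKM), Mmp23 (80.2 FPKM), Timp3 (73.2 FPKM), Adam10 (58.5 FPKM), Adam9 (53.4 FPKM) and Adam12 (39.3 FPKM). Below the first gene the order was not sharp, since the libraries of Timp1 (180 to 373 FPKM), Mmp2 (159 to 225 FPKM) and Timp2 (116 to 179 FPKM) overlapped. The leading Adamts genes were Adamts1 (24.4 FPKM) and Adamts4 (21.6 FPKM). Mmp14 made up 28.3% ± 2.4 of the summed FPKM of all 79 genes in the libraries labelled IL6 shRNA1 and 28.2% ± 2.2 in the control libraries (SD, n = 5 each), a difference smaller than the spread. The 4 Timp genes made up 30.9% ± 4.0 and 25.8% ± 2.8, and the Mmp genes 50.7% ± 4.1 and 55.3% ± 2.9. Adam genes made up 11.4% ± 0.6 and 11.9% ± 0.7, and Adamts genes 6.92% ± 0.60 and 6.98% ± 0.78. No test of these shares was made.

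**Figure D1:**
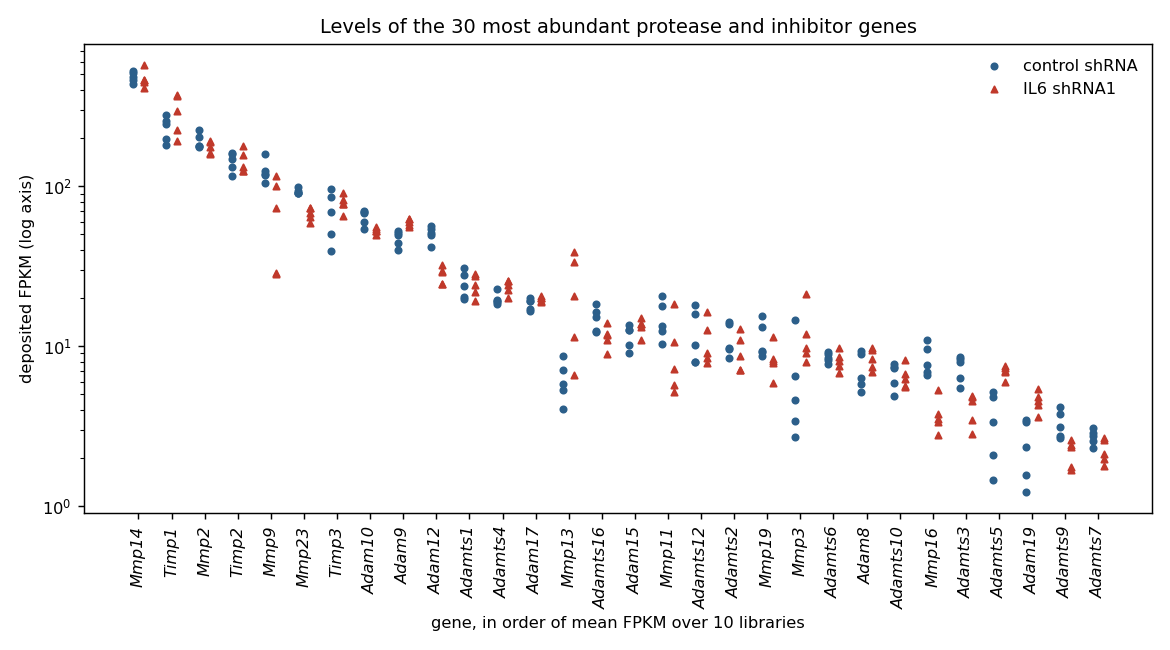
Levels of the 30 most abundant genes in each library on a log axis of deposited FPKM, control libraries as blue circles and libraries labelled IL6 shRNA1 as red triangles. Mmp14 lies highest in all 10 libraries (412 to 570 FPKM), and Mmp9 in the libraries labelled IL6 shRNA1 is spread from 28.3 to 116 FPKM.

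At the low end, 17 of the 79 genes had no count in any library. A count of 0 in a single library allows an expected count of up to 3 there, and 0 in all 10 libraries puts the bound on the mean lower. They were 15 Adam genes, 10 of them on chromosome 8, and Mmp7 and Mmp20 in the chromosome 9 cluster. Another 17 genes had counts but did not pass the filter on low counts, with at most 16 counts in any library. That left 45 genes tested, 14 Mmp, 12 Adam, 16 Adamts and 3 Timp genes.

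Of the 45 tested members, 5 stood higher and another 5 stood lower with the IL6 hairpin label by edgeR's quasi-likelihood test at an adjusted p under 0.05. Lower were the membrane-type Mmp16, Mmp23, Adam12, Adam10 and the procollagen peptidase Adamts3. Higher were the collagenase Mmp13, the membrane-anchored Mmp25, Adam19, Adam9 and the proteoglycan-cleaving Adamts5. These 10 were 22.2% of the members tested, where 11.8% of all 15064 genes tested passed, 5.62% as higher and 6.16% as lower. No test of that difference between shares was made. With scaling by library totals alone, 2 members were higher and 5 lower. In that fit Adam19 (adjusted p = 0.054), Adamts5 (0.061), Mmp25 (0.052) and Adam10 (0.057) no longer passed, and Adamts9 did, as lower (0.037). Of the 45 members tested, 4 passed with a difference of at least 2-fold (Mmp13, Mmp25, Adamts5 and Mmp16), as did 373 of the 15064 genes tested (2.48%). The 2 groups did not overlap in 8 of the 45, all among the 10 called, and in 1647 of the 15064 genes (10.9%). At an unadjusted p under 0.05 there were 16 of the 45 members and 4693 of the 15064 genes (31.2%), so that these shares were close. The median log2 fold change of the members tested was 0.01, with 23 positive and 22 negative, and that of all genes was -0.01. By family, 2 Mmp genes were higher and 2 lower, 2 Adam genes higher and 2 lower, 1 Adamts gene higher and 1 lower, and no Timp gene passed.

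**Figure D2:**
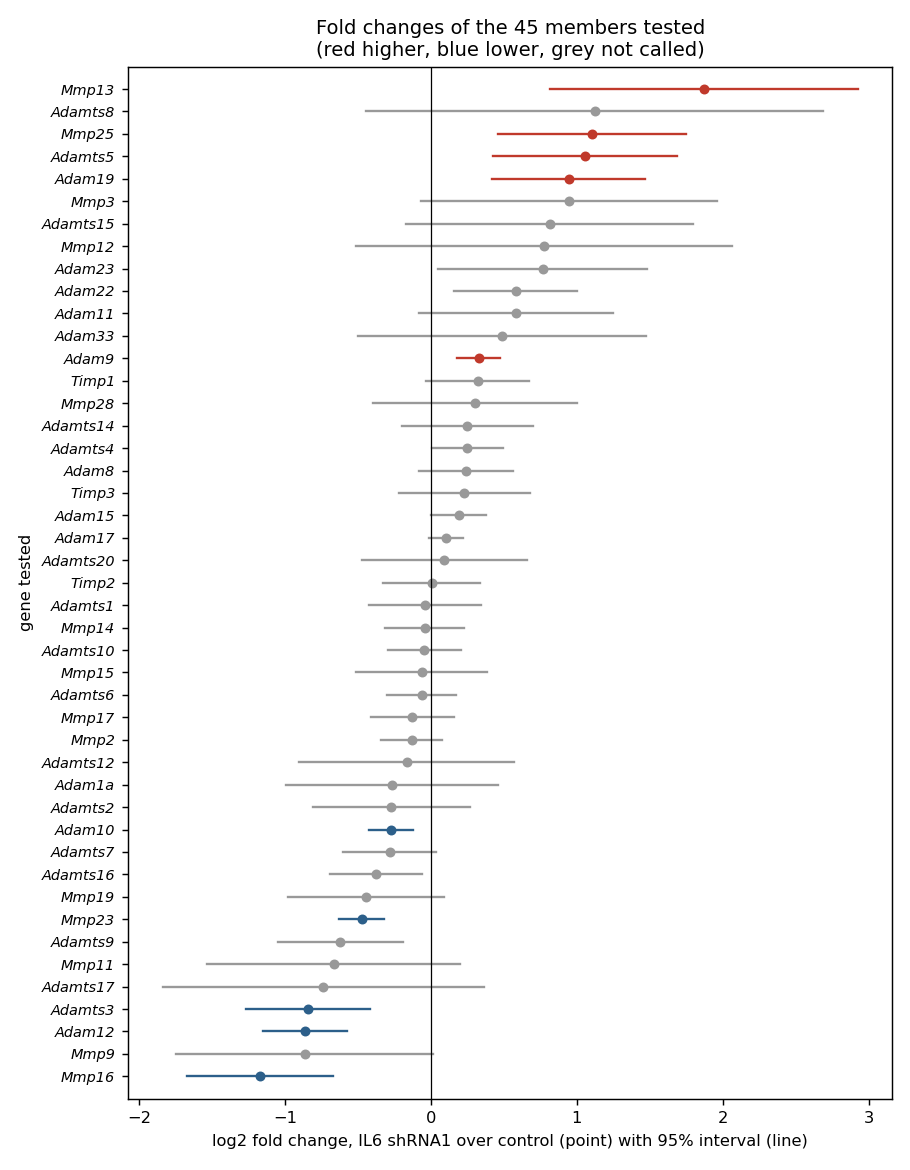
Log2 fold changes of the 45 genes tested, libraries labelled IL6 shRNA1 over control, as points with 95% intervals as lines. Red points are higher, blue points lower and grey points did not pass at an adjusted p under 0.05. The 5 higher and 5 lower genes include members of the Mmp, Adam and Adamts families on both sides, and intervals of many low genes, such as Adamts8 and Mmp12, span 0 widely.

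Among the secreted Mmp genes, Mmp13 (ENSMUSG00000050578.10, chromosome 9, 7272514 to 7283331), a collagenase that cuts fibrillar collagen, had the largest difference. It stood at 94.3, 54.2, 29.98, 16.7 and 107 CPM in IL6 shRNA1 libraries 1 to 5 and at 22.4, 11.4, 14.6, 13.9 and 20.3 CPM in control libraries 1 to 5. The libraries labelled IL6 shRNA1 were spread widely, and library 4 lay inside the control range, so the groups overlapped. Mmp13 was 3.66-fold higher (95% interval 1.76 to 7.59; log2 fold change 1.87 ± 0.47 (SE), adjusted p = 0.033). The call was lost (adjusted p up to 0.080, log2 fold change 1.56 to 2.13 over all omissions) when IL6 shRNA1 library 2 or 5 or control library 2, 3, 4 or 5 was left out. It was also lost with limma voom (adjusted p = 0.063), without a filter on low counts (0.096), with the replicate block (0.061) and on FPKM with a pseudocount of 1 (0.051).

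Mmp13 opens a run of 9 Mmp genes within 427.1 kb of chromosome 9 (7272514 to 7699585), of which 3 were tested and 7 had any count. Mmp3, stromelysin-1, stood at 18.5, 16.1, 13.98, 20.5 and 39.6 CPM against 25.1, 5.11, 11.04, 6.0 and 9.02 CPM. Its groups overlapped through control library 1 (log2 fold change 0.94 ± 0.45, adjusted p = 0.19), and without that library Mmp3 passed (log2 fold change 1.497, adjusted p = 0.028). Mmp12, the macrophage elastase, stood at 8.92 ± 5.29 and 5.21 ± 3.64 CPM (log2 fold change 0.77 ± 0.58, adjusted p = 0.39). Mmp10, stromelysin-2, was not tested, with 54 counts summed over the 5 libraries labelled IL6 shRNA1 and 19 over the control libraries. The neutrophil collagenase Mmp8 had 18 and 14 counts, Mmp27 had 23 and 7, and Mmp1b had 1 and 0. Mmp13 was therefore the only gene of the run that passed, while the means of Mmp3, Mmp12 and Mmp10 were also above those of the control libraries without passing or without a test. That the difference of Mmp13 is larger than that of its neighbours was not tested.

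**Figure D3:**
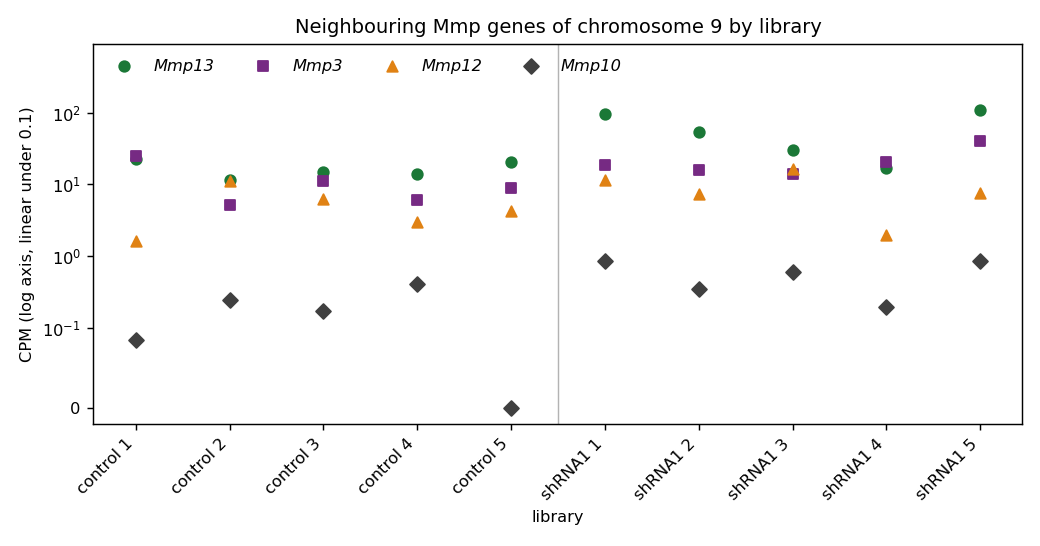
CPM of 4 neighbouring genes of the chromosome 9 cluster in each library (symmetric log axis, linear under 0.1 CPM), control libraries left of the line and libraries labelled IL6 shRNA1 right of it. Mmp13 reaches 107 CPM in IL6 shRNA1 library 5 and 16.7 CPM in library 4, and Mmp10 stays under 1 CPM in all 10 libraries.

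The gelatinases Mmp2 and Mmp9, which cut denatured collagen and basement membrane, did not pass. Mmp2 stood at 593 ± 71.0 and 649 ± 61.1 CPM (log2 fold change -0.13, 95% interval -0.34 to 0.08, adjusted p = 0.38). Mmp9 stood at 375, 255, 98.5, 393 and 104 CPM in the libraries labelled IL6 shRNA1 and at 401, 592, 347, 438 and 454 CPM in the control libraries. IL6 shRNA1 libraries 3 and 5 were low and libraries 1 and 4 reached the control range. The interval of the difference reached 0 (log2 fold change -0.86 ± 0.39, 95% interval -1.74 to 0.01, adjusted p = 0.17). Mmp9 is also made by neutrophils, whose other 9 markers summed to 40.0 to 66.0 CPM against 18.5 to 64.3 CPM, with Ly6g at 0 or 1 count per library. The part of neutrophils in the Mmp9 levels was not tested. Mmp11 (adjusted p = 0.27) and Mmp19 (adjusted p = 0.23) did not pass either, although Mmp11 did without IL6 shRNA1 library 1 (log2 fold change -1.07, adjusted p = 0.043).

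Among the Mmp enzymes held in the membrane, at least as precursors, the most abundant did not pass and 3 of the scarcer ones did. Mmp14 stood at 2813 ± 458 and 2898 ± 383 CPM (log2 fold change -0.04, 95% interval -0.31 to 0.23, adjusted p = 0.85). Mmp16 (ENSMUSG00000028226.15, chromosome 4, 17852893 to 18119145), known as MT3-MMP, stood at 48.2, 28.8, 31.7, 22.8 and 31.2 CPM against 63.3, 88, 56.3, 56.6 and 102 CPM. All 5 libraries labelled IL6 shRNA1 lay below all 5 control libraries, and Mmp16 fell by 55.5% (log2 fold change -1.17 ± 0.23, adjusted p = 0.012).

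Mmp23 (ENSMUSG00000029061.2, chromosome 4, 155650655 to 155653384), whose precursor is a membrane protein, stood at 168, 148, 166, 163 and 141 CPM against 204, 224, 217, 210 and 237 CPM. The spread within each group was small and the groups were apart. Mmp23 fell by 28% (log2 fold change -0.47 ± 0.07, adjusted p = 0.0034). Mmp25 (MT6-MMP), anchored by a lipid and known from leukocytes, stood at 7.27, 7.71, 8.08, 7.59 and 11.4 CPM against 6.45, 2.39, 5.37, 2.43 and 2.85 CPM. It was low in every library but without overlap, and was 2.15-fold higher (95% interval 1.37 to 3.36; log2 fold change 1.10 ± 0.29, adjusted p = 0.036). That call was lost without any 1 of IL6 shRNA1 libraries 2, 3, 4 and 5 or control libraries 2, 4 and 5 (adjusted p up to 0.088, log2 fold change 0.97 to 1.38 over all omissions). Mmp15 (adjusted p = 0.87) and Mmp17 (adjusted p = 0.54) did not pass.

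Among the Adam sheddases, Adam10 and Adam17 carry out much of the known release of membrane proteins, Adam17 that of TNF and of the IL-6 receptor. Adam10 stood at 289, 255, 238, 254 and 267 CPM against 332, 311, 313, 332 and 285 CPM. The groups touched at IL6 shRNA1 library 1 and control library 5. Adam10 fell by 17.1% (log2 fold change -0.27 ± 0.07, adjusted p = 0.030). Leaving out any 1 library other than IL6 shRNA1 library 1 and control library 5 ended this call (adjusted p up to 0.084, log2 fold change -0.30 to -0.23). Adam17 stood at 141 ± 5.2 and 132 ± 5.0 CPM and did not pass (log2 fold change 0.10, 95% interval -0.02 to 0.22, adjusted p = 0.22). Il6ra, a substrate of both enzymes, stood at 25.7 ± 5.1 and 22.1 ± 3.1 CPM (adjusted p = 0.34).

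The 3 meltrins, Adam9, Adam12 and Adam19, all passed and not in 1 direction. Adam12 (ENSMUSG00000054555.11, chromosome 7, 133883199 to 134232146), or meltrin alpha, stood at 357, 308, 254, 247 and 320 CPM against 516, 603, 495, 436 and 649 CPM. Its highest library labelled IL6 shRNA1 lay below its lowest control library. Adam12 fell by 45% (log2 fold change -0.86 ± 0.13, adjusted p = 0.0038). Adam9, or meltrin gamma, stood at 246, 243, 252, 218 and 263 CPM against 203, 192, 201, 200 and 177 CPM. It was 1.26-fold higher without overlap (95% interval 1.13 to 1.39; log2 fold change 0.33 ± 0.07, adjusted p = 0.013). Adam19, or meltrin beta, stood at 26.9, 31.7, 29.9, 32.6 and 39.7 CPM against 23.5, 11.6, 22.4, 16.3 and 9.43 CPM. It was 1.93-fold higher without overlap (95% interval 1.34 to 2.77; log2 fold change 0.95 ± 0.24, adjusted p = 0.030). The Adam19 call was lost without any 1 of IL6 shRNA1 libraries 2 to 5 or control libraries 2 and 4 (adjusted p up to 0.071, log2 fold change 0.81 to 1.114 over all omissions). Adam12 and Adam9 passed in all 10 such omissions.

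The remaining Adam genes did not pass by edgeR on all libraries. Adam15 stood at 81.1 ± 6.4 and 71.0 ± 7.6 CPM (adjusted p = 0.16), and Adam8, known from myeloid cells, at 38.6 ± 4.5 and 32.7 ± 7.4 CPM (adjusted p = 0.29). Adam22, Adam23 and Adam11, which lack a catalytic site and are best known from neurons, were counted at low levels. Adam22 stood at 10.7 ± 1.5 and 7.18 ± 2.03 CPM (adjusted p = 0.070) and passed with DESeq2 (adjusted p = 0.022) and, in edgeR, without control library 2 (log2 fold change 0.74, adjusted p = 0.037). Adam23 passed without IL6 shRNA1 library 1 (log2 fold change 0.96, adjusted p = 0.042), and Adam23 and Adam11 stayed at 6.43 CPM or less in every library. Adam9 was the only tested gene of the 5 Adam genes that lie together on chromosome 8, where Adam18 had no count and Adam3, Adam5 and Adam32 had 20, 53 and 28 counts over all libraries.

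**Figure D4:**
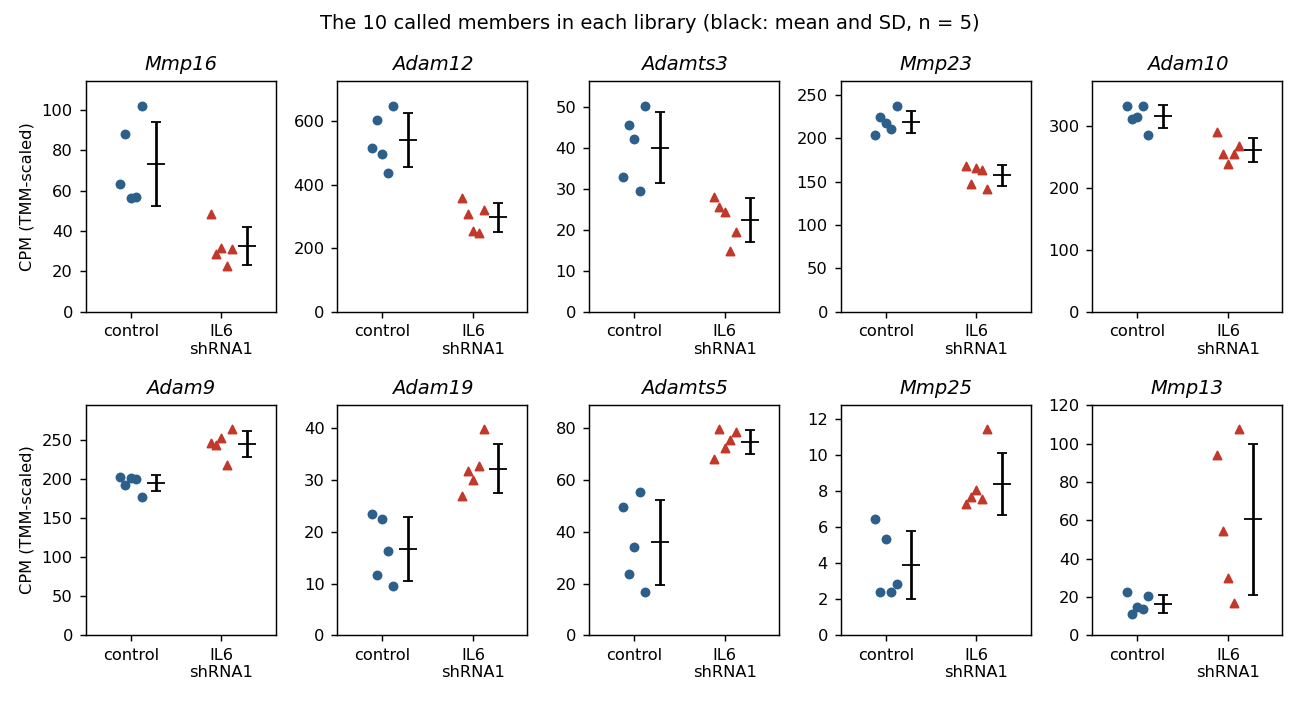
The 10 genes that passed, with CPM of each library on linear axes from 0, control libraries as blue circles and libraries labelled IL6 shRNA1 as red triangles, and the mean and SD of 5 libraries in black. The groups touch or overlap in Adam10 and Mmp13 and are apart in the other 8.

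Among the Adamts genes, Adamts5 and Adamts3 passed in opposite directions. Adamts5, an aggrecanase, stood at 68.1, 79.4, 72.3, 75.4 and 78.4 CPM against 49.6, 23.5, 34.02, 55.3 and 16.9 CPM. The libraries labelled IL6 shRNA1 were close together and the control libraries spread out. Adamts5 was 2.08-fold higher (95% interval 1.35 to 3.22; log2 fold change 1.06 ± 0.28, adjusted p = 0.040), a call lost without any 1 of IL6 shRNA1 libraries 2 to 5 or control libraries 2 and 3 (adjusted p up to 0.082, log2 fold change 0.89 to 1.26 over all omissions). Adamts1, which adjoins Adamts5 on chromosome 16 and also cuts proteoglycans, stood at 128 ± 20.6 and 132 ± 33.8 CPM (log2 fold change -0.04, 95% interval -0.42 to 0.35, adjusted p = 0.91). Adamts4, another aggrecanase, stood at 113 ± 14 and 95.4 ± 13.6 CPM (adjusted p = 0.15).

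Adamts3, which trims procollagen and activates VEGF-C, stood at 27.9, 25.6, 24.2, 14.7 and 19.4 CPM against 32.9, 45.4, 42.1, 29.4 and 50.2 CPM. The groups did not overlap, though the gap was narrow. Adamts3 fell by 44.1% (log2 fold change -0.84 ± 0.19, adjusted p = 0.021), a call lost without IL6 shRNA1 library 5 or control library 2 or 5 (adjusted p up to 0.054, log2 fold change -0.93 to -0.71 over all omissions). The other procollagen peptidases did not pass, with Adamts2 at 87.5 ± 26.6 and 105 ± 31.3 CPM (adjusted p = 0.48) and Adamts14 at 11.4 ± 3.1 and 9.57 ± 2.16 CPM (adjusted p = 0.43). Adamts9, which cuts versican, stood at 32.7 ± 7.4 and 50.2 ± 12.7 CPM (log2 fold change -0.62 ± 0.20, adjusted p = 0.063). It passed with DESeq2 (adjusted p = 0.022) and with limma on FPKM (adjusted p = 0.045 with a pseudocount of 0.1, 0.044 with 1). Adamts16 stood at 78.7 ± 15.2 and 102 ± 15.3 CPM (adjusted p = 0.10) and passed without IL6 shRNA1 library 1 (adjusted p = 0.040), as did Adamts9 (adjusted p = 0.044). Adamts12 stood at 120 ± 44.3 and 134 ± 60.6 CPM (adjusted p = 0.78).

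None of the 3 inhibitors tested passed by edgeR or by DESeq2, and none had an unadjusted p under 0.05. Timp1, which inhibits most secreted Mmp enzymes, stood at 180, 257, 324, 309 and 207 CPM against 208, 185, 233, 223 and 173 CPM. IL6 shRNA1 libraries 2, 3 and 4 lay above all control libraries, and libraries 1 and 5 lay among them (log2 fold change 0.32 ± 0.16, 95% interval -0.03 to 0.67, adjusted p = 0.20). Without library 1 Timp1 passed (log2 fold change 0.43, adjusted p = 0.047). Timp2, which takes part in the activation of Mmp2 by Mmp14, stood at 563 ± 117 and 561 ± 93.4 CPM (log2 fold change 0.01, 95% interval -0.33 to 0.34, adjusted p = 0.98). Timp3, which binds to the matrix and inhibits Adam17, stood at 643 ± 98.0 and 548 ± 171 CPM (log2 fold change 0.23, 95% interval -0.22 to 0.68, adjusted p = 0.47). Timp4 was not tested, with 6 and 24 counts summed over the groups.

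Whether the called genes also passed in fits that take account of the other cell types and the outlying libraries was tried after the data were seen. With the macrophage score of each library (the mean centred log2 CPM of the 14 markers) as a covariate, no member passed by edgeR, and 0.212% of all genes did. In that fit 8 of the 45 members and 1603 of the 15064 genes had an unadjusted p under 0.05. The score itself was higher in the libraries labelled IL6 shRNA1 (0.01 to 0.94 against -1.24 to 0.04), so the fit has little range in which both groups are present. In that fit the log2 fold change of Adam19 was 0.13, of Mmp25 0.22, of Adamts5 0.35, of Mmp16 -0.46 and of Adamts3 -0.35. That of Adam12 was -0.56, of Mmp23 -0.32, of Adam9 0.24 and of Mmp13 1.73. All 9 were nearer to 0 than without the covariate, and Adam10 at -0.30 was not. Without IL6 shRNA1 library 5 and control libraries 2 and 5, only Adam12 passed (log2 fold change -0.73 ± 0.14, adjusted p = 0.044), with 1.38% of all genes. There Mmp23 came to -0.38 (adjusted p = 0.051), Mmp16 to -0.84 (adjusted p = 0.11) and Mmp13 to 1.52 (adjusted p = 0.24). Both fits kept the direction of all 10 genes.

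**Figure D5:**
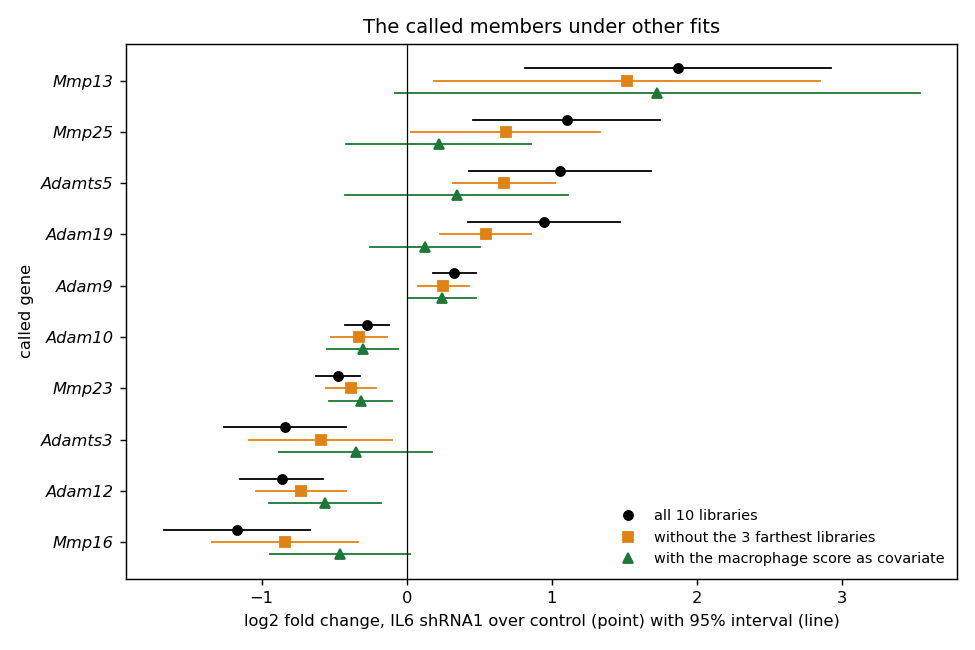
Log2 fold changes of the 10 genes that passed, as points with 95% intervals as lines, from all 10 libraries (black), without the 3 libraries farthest out on the first principal component (orange) and with the macrophage score as a covariate (green). Every point stays on its side of 0, and Adam19 moves from 0.95 to 0.13 with the covariate while Mmp13 moves from 1.87 to 1.73.

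Genes that govern Adam enzymes differed in part. Of 13 partners and regulators tested, 1 was higher and 2 lower (23.1%, against 11.8% of all genes, a difference between shares that was not tested here or for the lists that follow). Rhbdf2 and Rhbdf1, which carry Adam17 to the cell surface, moved in opposite directions, Rhbdf2 at 37.1 ± 7.0 and 24.6 ± 4.2 CPM (log2 fold change 0.59, adjusted p = 0.033) and Rhbdf1 at 69.4 ± 4.9 and 85.1 ± 4.9 CPM (log2 fold change -0.29, adjusted p = 0.021). Sfrp1, an inhibitor of Adam10, fell by 0.63 on the log2 scale to 102 ± 19.8 CPM from 159 ± 27.8 CPM (adjusted p = 0.023). Of 27 substrates of shedding tested, 6 were higher and 2 lower (29.6%). The 6 were Trem2, Csf1r, Cxcl16, Tnf, Tnfrsf1b and Mertk, all known from macrophages, and Csf1r and Mertk are also in the macrophage list given above. Trem2 had a log2 fold change of 0.97 (adjusted p = 0.021) and Csf1r of 0.86 (adjusted p = 0.025). The 2 lower were Cdh2, N-cadherin (log2 fold change -0.54, adjusted p = 0.022), and Tnfrsf1a (log2 fold change -0.28, adjusted p = 0.025).

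Other protease systems of the matrix were read from 4 lists. Of 11 genes of the plasminogen system, 1 was higher (9.09%), Plau, the urokinase that makes plasmin, at 86.4 ± 13.2 and 46.6 ± 11.8 CPM (log2 fold change 0.89, adjusted p = 0.013). Of 21 genes for cathepsins, matrix serine proteases, the cathepsin inhibitors Cst3 and Cstb and the glycosidase Hpse, 6 were higher (28.6% of the list, where 11.8% of all genes passed), among them Ctsb (log2 fold change 0.49, adjusted p = 0.0048), Lgmn (0.87, adjusted p = 0.0070), Prss23 (1.108, adjusted p = 0.0079) and Ctso (0.51, adjusted p = 0.016). Of 13 astacins and other metalloproteases and their enhancers, 3 passed (23.1%) and 2 were higher, Pcolce2 (1.35, adjusted p = 0.0034) and Pappa (0.95, adjusted p = 0.020). The aminopeptidase Enpep was lower at 6.57 ± 2.25 against 25.7 ± 10.6 CPM (log2 fold change -1.97, adjusted p = 0.0040). Of 13 Adamts-like and microfibril genes, which hold no protease domain, 3 passed (23.1%). Adamtsl1 was higher (log2 fold change 0.81, adjusted p = 0.022) and Adamtsl4 (-0.57, adjusted p = 0.0042) and Thsd4 (-1.49, adjusted p = 0.0050) were lower. The macrophage score was higher in the libraries labelled IL6 shRNA1, as were the medians of the cathepsin list (log2 fold change 0.30) and the plasminogen list (0.28), whereas those of the astacin list (-0.19) and the Adamts-like list (-0.19) were negative. The part of macrophages in these lists was not tested beyond the covariate fit. That of the other cell types whose markers also had positive medians was not tested.

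Of 27 genes for proteoglycans, matrix proteins and hyaluronan synthases, most of them substrates of these enzymes or their partners in the matrix, 1 was higher and 2 lower. These were 11.1% of the list, near the 11.8% of all genes. Thbs1 was higher (log2 fold change 0.63, adjusted p = 0.045), and decorin (Dcn; log2 fold change -0.62, adjusted p = 0.017) and Col4a1 (log2 fold change -0.86, adjusted p = 0.046) were lower. Versican (Vcan), the main proteoglycan target of Adamts1 and Adamts9, did not pass at 265 ± 156 and 420 ± 111 CPM (adjusted p = 0.23). Of 19 genes known to induce Mmp genes (transcription factors, cytokines, the receptor Il1r1 and the membrane glycoprotein Bsg), 6 were higher and 1 lower, 36.8% of the list. Higher were Fos (log2 fold change 0.78, adjusted p = 0.025), Etv5 (0.70, adjusted p = 0.020), Il1b (1.77, adjusted p = 0.016), Ets1, Junb and Il1a, and lower was Rela (-0.22, adjusted p = 0.023). Of the genes given with an adjusted p in these lists, those that had passed and that also passed without the 3 outlying libraries were Sfrp1, Pcolce2, Enpep and Lgmn, at adjusted p of 0.031, 0.026, 0.0021 and 0.033. None passed with the macrophage score as a covariate.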

How the data were processed

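RNA sequencing of 10 mouse samples was analysed, 5 labelled IL6 shRNA1 and 5 labelled control shRNA. The authors deposited 1 table of raw counts per gene and 1 of FPKM values, in which those counts are divided by gene length and column total. The submitters' processing notes list STAR 2.7.0f, featureCounts (Subread 1.6.4), Trim Galore 0.6.6, FastQC 0.11.9 and SAMtools 1.11, with builds GRCm38 and mm10. For the strand setting and multi-mapped reads, the choice is not given in the sources used here. Genes overlapping the called members held at most 0.0639% of the member's counts.

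Counts were tested with edgeR 4.0.16 in R 4.3.3 (filterByExpr with a minimum count of 10, TMM, glmQLFit with robust=TRUE, Benjamini-Hochberg over all 15064 genes tested), with calls at an adjusted p under 0.05. The script was checked on simulated counts. Levels between genes were compared on FPKM only. Named were every called member, the 5 most abundant members of each family, a set of well-known members whatever their values, Il6 and Il6ra, and up to 4 called genes with the smallest p in each of 8 companion lists. Others were named after their values were seen: Adam11, Adam22, Adam23, Adamts8, Adamts14, Mmp11, Mmp15, Mmp17, Mmp19, Vcan and the low genes of the 2 clusters. So were further called genes of the companion lists and single cell type markers. Adam29 was named for its promoter motifs. Members and lists were chosen with earlier results of these data known. Alternatives were other scalings, filters, DESeq2 1.42.0, limma 3.58.1 (voom, and FPKM with pseudocounts of 1 and 0.1), no robust dispersion, an adjusted p under 0.01, the replicate number as a block and the omission of each library. A macrophage covariate and the omission of 3 outlying libraries were added after the data were seen. Promoter windows came from RefSeq (GRCm38.p6). With 5 libraries a group and at least 17905397 counts each, the precision rests on the spread between libraries.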

Additional observations from a re-analysis of the deposited data

Results flagged for a closer look

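In 3 of 58 groups of 5 libraries, 1 library lay far from the other 4 by Dixon's test, and chance flags about 1 in 20 groups. Mmp25 stood at 11.43 CPM in IL6 shRNA1 library 5, where the other 4 libraries of the group stood at 7.27 to 8.08 CPM. Mmp3 stood at 39.64 CPM in the same library, with the others at 13.98 to 20.5 CPM. This library also held the highest summed level of the muscle, fat and skin markers (8272 CPM). Adam15 stood at 70.23 CPM in IL6 shRNA1 library 1, with the others at 82.3 to 87.2 CPM. The part of other cell types in these 3 values was not tested.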

How the results depend on the processing

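All 10 called members kept their direction under all 23 alternatives. The call itself held in 22 of the 23 for Adam12, 21 for Mmp23, 20 for Mmp16, 19 for Adam9, 17 for Adamts3, 11 each for Adam19, Adamts5 and Mmp25, 10 for Mmp13 and 7 for Adam10. The main fit called 10 of 45 members and 1775 genes (847 higher, 928 lower), 11.8% of 15064. DESeq2, without that filter, called 12 of 62 members (Adam22 and Adamts9 beside the 10) and 3005 genes (1693 higher), 10.1% of 29762. In edgeR, no filter on low counts gave 6 of 62 members (2 higher) and 1225 genes (583 lower), 4.12% of 29762. Library totals alone gave 2 higher members and 553 higher genes, with 9.29% of all genes called. At an adjusted p under 0.01 there were 2 members, both lower (Adam12, Mmp23), 0 higher, and 381 genes (187 higher, 194 lower), 2.53% of those tested. The macrophage covariate left 0 members, 0 higher and 0 lower, and 32 genes (20 higher, 12 lower), with 8 members and 1603 genes at an unadjusted p under 0.05. Without the 3 outlying libraries there was 1 member, 0 higher and 1 lower, and 212 genes (130 higher, 82 lower). The omission of 1 library at a time gave 4 to 15 members (1 to 7 higher, 3 to 8 lower) and 864 to 2774 genes (415 to 1445 higher, 415 to 1329 lower). The most genes passed without IL6 shRNA1 library 1 (18.2% of those tested) and the fewest without control library 5 (5.65%). In the companion lists, DESeq2 called 11 higher and 1 lower of the cathepsins and serine proteases, 13 and 3 of the shed substrates, 2 and 3 of the astacins and 2 and 3 of the matrix substrates. Without the 3 outlying libraries these were 1 and 0, 0 and 0, 1 and 1, and 0 and 0, and the partners of Adam enzymes had 0 and 1, with 0 called among the Mmp inducers, the plasminogen system and the Adamts-like genes.

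With the replicate number as a block (replicate block), 755 genes passed (349 higher, 406 lower), 5.01% of those tested, and 6 members, 0 higher and 6 lower (Adam12, Adamts3, Adamts9, Adamts16, Mmp16 and Mmp23). In that fit 20 of the 45 members (10 higher, 10 lower) and 4152 of the 15064 genes had an unadjusted p under 0.05. Deviations of same-numbered libraries correlated at -0.28, -0.07, 0.11, 0.27 and -0.27, and those of differently numbered libraries at -0.70 to 0.55. No sign of pairing by number was thus seen, though correlations spread this widely cannot exclude it.

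Signs turned in members and receptors that did not pass. With the macrophage covariate the log2 fold change was -0.0754 in Adam15, -0.28 in Mmp3, -0.0386 in Timp3, 0.21 in Adamts2, 0.31 in Mmp14, 0.78 in Adamts12, 0.48 in Adamts1, -0.74 in Il6 and -0.27 in Il6ra. Without the 3 outlying libraries it was -0.0312 in Timp3, 0.0922 in Mmp14, 0.32 in Adamts12 and 0.23 in Adamts1. Timp2 came to -0.0012 with limma voom and -0.00064 with the replicate block. Over the omissions of 1 library it ranged from -0.0934 to 0.0874 in Timp2, -0.128 to 0.0224 in Mmp14, -0.366 to 0.0727 in Adamts12 and -0.109 to 0.0956 in Adamts1. The cause of these changes was not tested.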
